A study of Vitis vinifera with 6 samples.

Results

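In the terminal buds of an autotetraploid grapevine, 83 genes had low RNA levels in replicates 2 and 3 and a level in replicate 1 that reached the range of the diploid. They are 83 of 29971 genes listed, and of the 18119 tested, whose mean over the 6 libraries reached 1 FPKM. FPKM counts the fragments on a transcript relative to its length and to the size of the library. The genes were chosen by these same FPKM values on the scale of log2(FPKM + 1). Replicates 2 and 3 of the autotetraploid both had to lie more than 1 log2 unit below the lowest diploid library, whereas replicate 1 had to be at or above it. Genes with identifiers that begin VIT_11s0052 or VIT_16s0013 were left out, which removed 9 and 0 genes of the 92 that met the other conditions. The values that chose the genes are given as a description, with no test.

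RNA-Seq was performed on terminal buds of 4X, the autotetraploid that colchicine treatment of tissue-cultured ‘Jingyanjing’ gave, and of 2X, the untreated diploid ‘Jingyanjing’ (Vitis vinifera). Each ploidy had 3 libraries, and each was made from a pool of at least 3 buds, taken about a week before the 4X buds were shed. The question put to the data was which functions were spared in 4X replicate 1. All 4X vines derive from colchicine-treated tissue, so ploidy cannot be told apart from any other difference of that line, and in whole buds fewer cells of a type and less RNA per cell cannot be told apart either.

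The terminal bud holds the shoot apical meristem and the young leaves and internodes it forms. In self-pruning plants the tip stops growing and is shed at an abscission zone. Cells of a growing tip enlarge by loosening and rebuilding their walls, a process that auxin promotes and that Aux/IAA proteins, repressors of auxin-responsive transcription, hold back. Cells of the tip exchange signals and nutrients through plasmodesmata, the channels that cross their walls, and through membrane transporters, many of which are driven by ATP.

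The comparison of ploidies over the whole table depended on 4X replicate 1. By limma, which fits a linear model to the log2(FPKM + 1) of each gene and pools information on variance across genes, 5 genes were called lower and 11 higher in 4X at a Benjamini-Hochberg adjusted p under 0.05. The counts without 4X replicate 1 were 569 and 185. Sums of FPKM (1028187 to 1125409) and numbers of genes with at least 1 FPKM (17816 to 18058) covered similar ranges in all 6 libraries. The table holds no counts, and the mapping information that the paper reports was not used here, so counting error was not estimated. The labels give no vine and no batch for any library, and no value here checks that the library labelled 4X replicate 1 came from 4X buds alone, so its identity is uncertain and each of its values below is that of the library so labelled.

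Low levels in 4X replicates 2 and 3 took 4X replicate 1 with them in part of the genes only. Outside the excluded prefixes, 159 genes had both of these libraries more than 1 log2 unit below every 2X library. 4X replicate 1 was above all 3 2X libraries in 37 of them and within the 2X range in 46, which together are the 83 genes (52.2%). These are 44.6% and 55.4% of the 83, near the 42.1% and 57.9% among all 12699 genes tested with 4X replicate 1 at or above the lowest 2X library. In another 72 it was below every 2X library by up to 1 log2 unit, and in 4 it was lower still. Only 13 genes of the table, 4 of them outside the prefixes, had all 3 4X libraries more than 1 log2 unit below every 2X library. The same rule with another library spared gave 3 genes for 4X replicate 2 and 0 for 4X replicate 3.

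**Figure D1:**
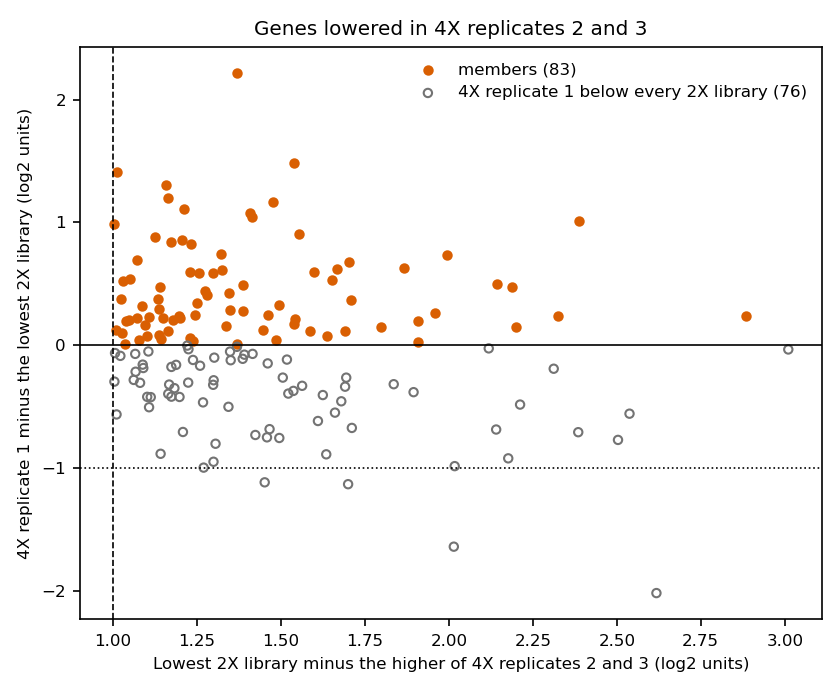
Place of 4X replicate 1 among the genes that were low in 4X replicates 2 and 3. The x axis gives the gap between the lowest 2X library and the higher of these replicates, and the y axis gives 4X replicate 1 minus the lowest 2X library, both in log2 units of FPKM + 1. Filled points are the 83 genes, which lie on or above 0 by the rule, and open circles are the 72 and 4 genes where 4X replicate 1 was below every 2X library. The dashed line marks the threshold of 1 on the gap, and the dotted line marks 1 log2 unit below the lowest 2X library.

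The opposite direction differed in number. Again outside the excluded prefixes, 44 genes were raised by more than 1 log2 unit above every 2X library in 4X replicates 2 and 3. 4X replicate 1 was at or below the highest 2X library in 5 of them (11.4%). The median difference from the mean of 2X was 1.56, 1.66 and 1.86 log2 units in 4X replicates 1, 2 and 3 for the 44 raised genes. For the 159 lowered genes the corresponding medians were -0.19, -1.76 and -1.64. By these medians 4X replicate 1 was close to the other 4X libraries in the raised genes and close to 2X in the lowered ones. Both sets were chosen on these libraries, so the difference between them was not tested.

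Across the 83 genes, the level in 4X replicate 1 was 0.518 to 2.76 times the mean of 2X, with a median of 1.12, against a median of 0.989 over all genes tested. It was 0 to 0.482 times that mean in 4X replicate 2 (median 0.243) and 0 to 0.457 times in 4X replicate 3 (median 0.277), against medians of 1.02 and 1.01 over all genes tested. In 49 genes 4X replicate 1 was within 20% of the mean of 2X, and in 5 it was under 0.8 times that mean. In 39 genes the mean of 4X replicates 2 and 3 was at most 0.25 times the mean of 2X. 4X replicate 2 was the lower of these libraries in 53 genes and 4X replicate 3 in 27, and in 3 both were listed at 0.

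**Figure D2:**
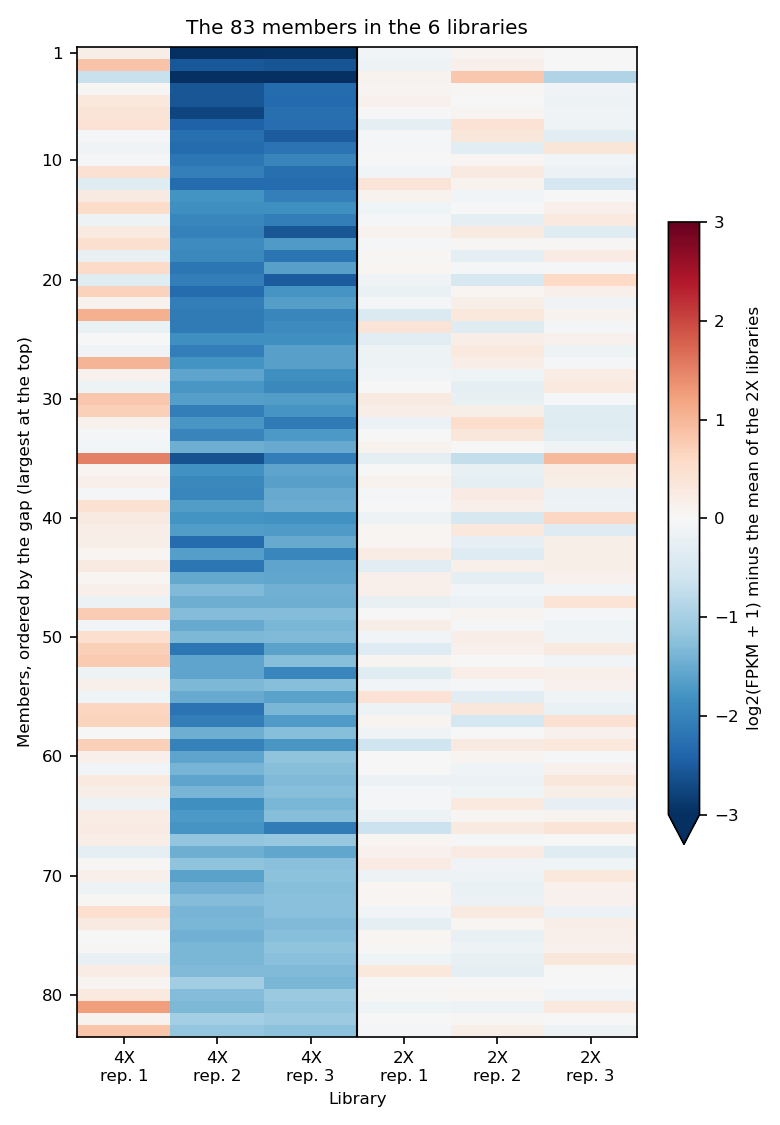
The 83 genes in the 6 libraries, 4X at the left and 2X at the right, as log2(FPKM + 1) minus the mean of the 2X libraries. Rows are ordered by the gap, largest at the top, and values below -3 take the darkest blue. 4X replicates 2 and 3 are blue in every row, as the rule requires, and 4X replicate 1 is red in most rows, with a median of 0.16.

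The genes covered a wide range of levels, with mean FPKM in 2X of 1.47 to 1719 and a median of 28.0, against a median of 17.1 over all genes tested. The mean of 2X reached 100 FPKM in 15 genes (18.1%), against 10.9% of all genes tested, and 23 genes were below 10 FPKM. They also varied more among the 2X libraries than the genes tested did as a whole. Their median coefficient of variation in 2X was 17.6%, against 11.1% over all genes tested. It was 9.07% in 9644 genes tested whose mean of 2X lay between the quartiles of the 83. In the 4 genes outside the prefixes that were low in every 4X library, this median was 17.3%. The rule used the lowest 2X library, so the spread of 2X is not independent of the choice. The lowest 2X library was replicate 1 in 23 genes, replicate 2 in 29 and replicate 3 in 31, so the same 2X library was not the lowest throughout. These are 27.7%, 34.9% and 37.3% of the 83, against 28.2%, 29.4% and 42.4% of all genes tested.

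With all 6 libraries limma called 0 of the 83 genes lower in 4X, beside a background of 0.0276% of genes tested (5 of 18119). Their adjusted p was 0.242 to 0.832, and 29 had an unadjusted p under 0.05, as had 1183 of all genes tested in the lower direction. Without 4X replicate 1 it called 82 of the 83, beside a background of 3.14%. The exception was VIT_17s0000g06210 (adjusted p = 0.0563), whose 2X libraries were far apart. Nothing is read from either count, because the rule used the same libraries. They show how the comparison of ploidies treats these genes.

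The largest gap belonged to VIT_03s0063g00460, which the study's gene ontology (GO) table places under DNA binding, transcription regulator activity and the nucleus. It had 109, 7.501 and 11.6 FPKM in 4X replicates 1, 2 and 3, against 92.2, 103 and 96.0 FPKM in 2X replicates 1, 2 and 3. 4X replicate 1 was above every 2X library, whereas the other 4X libraries were at 0.0772 and 0.120 times the mean of 2X, and their gap to the lowest 2X library was 2.88 log2 units.

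VIT_14s0066g02350, which has no entry in the study's tables, followed with a gap of 2.39 log2 units. Its level was 50.6, 3.88 and 3.73 FPKM in 4X against 24.5, 30.5 and 28.0 FPKM in 2X, in the order of the replicates. Here 4X replicate 1 was 1.83 times the mean of 2X. VIT_07s0031g01550 had 4.90 FPKM in 4X replicate 1 and was listed at 0 in the other 4X libraries, against 9.04, 15.3 and 4.01 FPKM in 2X. It is the gene with the lowest ratio of 4X replicate 1 to 2X, and its 2X libraries were spread widely.

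Among the next genes by gap, VIT_14s0083g01220 had 35.8, 5.01 and 6.25 FPKM in 4X replicates 1 to 3, against 36.5, 35.4 and 32.3 FPKM in 2X. VIT_18s0001g06020 had 30.5, 3.23 and 3.96 FPKM in 4X, against 26.6, 24.5 and 21.6 FPKM in 2X. In these genes the coefficient of variation in 2X was 6.24% and 10.3%, and 4X replicate 1 was at 1.03 and 1.26 times the mean of 2X. In VIT_15s0046g03500 the values were 20.9, 2.01 and 2.31 FPKM in 4X, against 12.2, 20.7 and 13.6 FPKM in 2X. VIT_11s0037g00890 had 6.88, 0.693 and 0.442 FPKM in 4X, against 7.04, 9.34 and 5.58 FPKM in 2X. For the last gene 4X replicate 1 lay inside the 2X range, and both other 4X libraries were under 1 FPKM.

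VIT_03s0091g01010 had 72.9, 15.1 and 16.2 FPKM in 4X, against 76.8, 63.4 and 101 FPKM in 2X. In VIT_06s0009g01620 the levels were 61.1, 13.4 and 15.3 FPKM in 4X, against 63.7, 66.6 and 60.1 FPKM in 2X. Both had 4X replicate 1 inside the 2X range. VIT_13s0084g00440, at a low level, had 4.30, 0.363 and 0.375 FPKM in 4X, against 7.90, 6.32 and 3.79 FPKM in 2X. Its 4X replicate 1 was at 0.717 times the mean of 2X and entered only through the low value of 2X replicate 3.

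The 8 genes with the highest levels in 2X were at 0.231 to 0.451 times the mean of 2X in 4X replicates 2 and 3. VIT_06s0061g01380 had by far the highest level, with 1856, 566 and 476 FPKM in 4X against 1610, 1561 and 1987 FPKM in 2X. Its gap was 1.46 log2 units, and 4X replicate 1 lay between the 2X libraries. VIT_12s0028g03270 had 317, 98.6 and 136 FPKM in 4X, against 339, 434 and 299 FPKM in 2X. VIT_18s0001g06150 had 472, 91.5 and 103 FPKM in 4X, against 326, 345 and 346 FPKM in 2X. In this gene the 2X libraries differed by little (SD 11.04 FPKM, n = 3) and 4X replicate 1 exceeded all of them.

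VIT_04s0008g05010 had 345, 101 and 130 FPKM in 4X, against 277, 277 and 381 FPKM in 2X. VIT_05s0029g00420 had 272, 103 and 107 FPKM in 4X, against 246, 232 and 234 FPKM in 2X. VIT_08s0007g03240 had 230, 81.2 and 84.3 FPKM in 4X, against 195, 201 and 226 FPKM in 2X. In the last 2 genes 4X replicate 1 was the highest of the 6 libraries. VIT_18s0001g07320 had 185, 46.6 and 63.2 FPKM in 4X, against 179, 246 and 179 FPKM in 2X. None of these highly expressed genes is named in the study's tables, and the remaining gene of the 8, VIT_11s0016g01810, is described with the annotated genes.

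In 17 genes (20.5%) 4X replicate 1 was at least 1.5 times the mean of 2X, against 9.59% of the 12699 genes tested that met the same condition on 4X replicate 1. It was at least 2 times that mean in 5, which were singled out after their values were seen. VIT_03s0017g01450 had the largest ratio, 2.76, with 9.68, 0.744 and 0.989 FPKM in 4X against 3.07, 3.01 and 4.43 FPKM in 2X. VIT_17s0000g06210 had 216, 11.5 and 17.1 FPKM in 4X, against 62.3, 45.7 and 149 FPKM in 2X. In VIT_17s0000g06210 the 2X libraries had a coefficient of variation of 65.0%, the widest of the 83. VIT_05s0077g01410 had 3.15 FPKM in 4X replicate 1 and was listed at 0 in replicates 2 and 3, against 1.45, 1.60 and 1.35 FPKM in 2X. The others, VIT_06s0061g01390 and VIT_10s0003g03800, each stand beside another of the 83 genes.

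Names and gene ontology terms were taken from the study's supplementary tables. A term or a name was given there for 11 of the 83 genes, and none for 72. The terms belong to genes that the study picked as decreased in these libraries, so their lists are not independent evidence of a direction. Of the 27 lists, 14 were truncated in the copy used and serve only to name a gene. The 83 genes hold 1 gene of the primer table and 0 of the table of differentially methylated genes. The latter table lists 12 genes, of which 6 were tested. As the paper describes it, that table is limited to genes with large changes in expression. Methylation of the 83 genes was not tested here, so their absence from so short a list does not show that they are unchanged in methylation. The functions of the 72 genes were not analysed here.

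**Figure D3:**
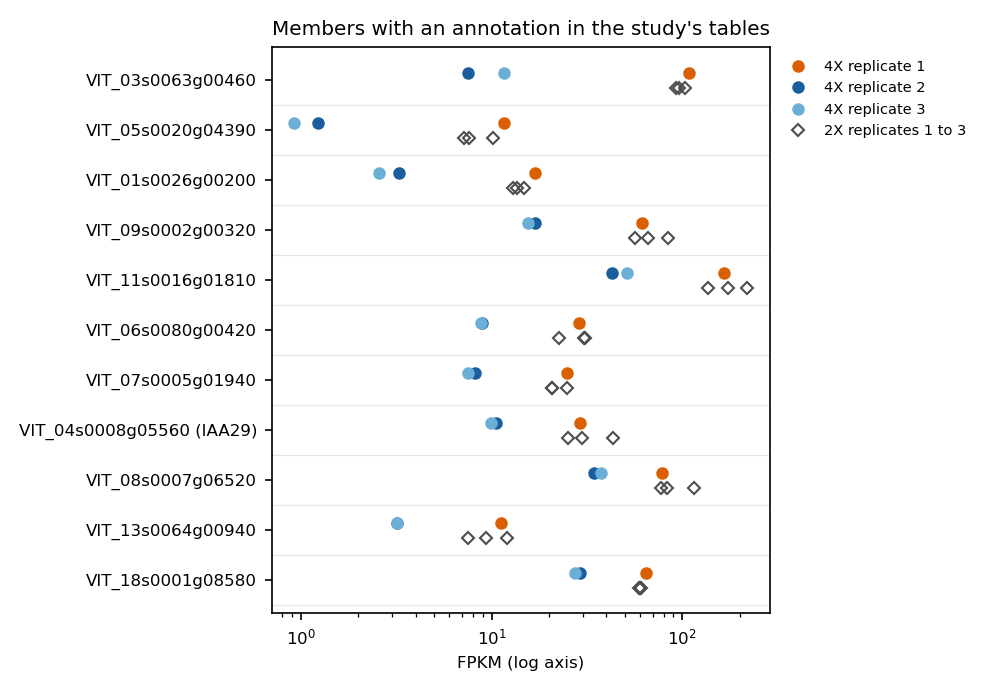
FPKM on a log axis in each library for the 11 genes with a GO term or a name in the study's tables, ordered by the gap. Orange circles are 4X replicate 1, blue circles are 4X replicates 2 and 3, and diamonds are the 2X libraries. In every gene the blue circles lie left of all diamonds and the orange circle lies among or right of them, from 11.3 FPKM in VIT_13s0064g00940 to 166 FPKM in VIT_11s0016g01810.

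Cell wall held 4 of the 83 genes among 15 tested, as did external encapsulating structure, and the other complete lists held fewer. All the complete GO lists together held 9 among 71 genes (12.7%), and such shares are above the 0.458% of all genes tested by the way the lists were drawn. VIT_01s0026g00200, also listed under cell wall organization and multidimensional cell growth, had 16.9, 3.25 and 2.56 FPKM in 4X, against 14.8, 12.9 and 13.6 FPKM in 2X. VIT_09s0002g00320, also under negative regulation of catalytic activity, had 61.2, 16.8 and 15.5 FPKM in 4X, against 66.4, 56.4 and 84.4 FPKM in 2X. In the first gene 4X replicate 1 was above all 2X libraries, and in the second it lay inside their range.

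VIT_07s0005g01940, under cell wall organization, had 24.8, 8.17 and 7.505 FPKM in 4X, against 24.8, 20.8 and 20.7 FPKM in 2X. VIT_08s0007g06520, under cell wall and plasmodesma, had 78.2, 34.5 and 37.4 FPKM in 4X, against 83.3, 77.8 and 116 FPKM in 2X. Its 4X replicate 1 was only 0.0065 log2 units above the lowest 2X library, the smallest margin of the 83 genes. Over all 15 cell wall genes the median difference from the mean of 2X was -0.17 log2 units in 4X replicate 1, against -1.06 and -1.12 in 4X replicates 2 and 3. At or above the lowest 2X library were 11, 2 and 0 of the 15 in 4X replicates 1, 2 and 3. Over all genes tested the shares at or above the lowest 2X library were 70.1%, 71.8% and 72.3%, so 4X replicate 1 was near this background in the cell wall list, at 73.3%. In the lists of cell wall organization, endogenous stimulus, auxin genes, plasmodesma and ATPase activity described next it was under it, at 25% to 41.2%.

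Cell wall organization held 3 of the 83 genes among 17 tested, with medians of -0.18, -0.81 and -0.97 log2 units in 4X replicates 1, 2 and 3. In 4X replicate 1, 7 of the 17 were at or above the lowest 2X library, and 0 were in the other 4X libraries. Cellular response to endogenous stimulus, the term for responses to hormones and other internal signals, also held 3 of 17. Its medians were -0.24, -1.25 and -1.07, and 5, 0 and 0 genes reached the lowest 2X library.

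Of these 3 genes, VIT_11s0016g01810 had the highest level, with 166, 43.0 and 51.6 FPKM in 4X against 175, 219 and 136 FPKM in 2X. VIT_06s0080g00420, also under nucleus, had 28.9, 8.92 and 8.77 FPKM in 4X, against 30.8, 22.6 and 30.6 FPKM in 2X. The third gene is IAA29 (VIT_04s0008g05560), which the primer table names and which encodes a protein of the Aux/IAA family. IAA29 had 29.2, 10.6 and 9.94 FPKM in 4X, against 43.5, 25.2 and 29.9 FPKM in 2X. In each of the 3 genes 4X replicate 1 was inside the 2X range and the other 4X libraries were below it.

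IAA29 was the only gene of the 83 among the 12 auxin genes of the primer table, whose medians were -0.29, -0.81 and -0.93 log2 units in 4X replicates 1, 2 and 3. 4X replicate 1 was at or above the lowest 2X library in 4 of the 12, and the other 4X libraries were in 0. The 3 beside IAA29 missed the threshold on the gap. AUX1 (VIT_08s0007g02030), which in Arabidopsis encodes an auxin influx carrier, had 97.1, 51.0 and 48.4 FPKM in 4X, against 94.7, 81.8 and 105 FPKM in 2X. IAA14 (VIT_05s0020g04690) had 179, 75.3 and 92.9 FPKM in 4X, against 173, 217 and 156 FPKM in 2X. SAUR (VIT_02s0154g00010), named for short messenger RNAs that auxin raises, had 52.8, 15.3 and 18.0 FPKM in 4X, against 53.3, 44.1 and 30.3 FPKM in 2X. In these genes too 4X replicate 1 was above the lowest 2X library.

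The remaining 8 auxin genes had 4X replicate 1 below every 2X library. The difference from the lowest 2X library was -0.011 log2 units in AVP1 (VIT_11s0118g00350) to -0.48 in a second SAUR gene (VIT_03s0038g00940). Near the wide end is IAA19 (VIT_09s0002g05150), at -0.47, with 131, 111 and 87.01 FPKM in 4X, against 186, 182 and 184 FPKM in 2X. In the auxin genes 4X replicate 1 thus lay on both sides of the lowest 2X library, in some by a small margin, and the genes do not form separate classes by this condition.

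Plasmodesma held 2 of the 83 genes among 15 tested, with medians of -0.32, -0.78 and -0.89 log2 units in 4X replicates 1, 2 and 3. The gene not yet described is VIT_18s0001g08580, with 64.8, 28.96 and 27.5 FPKM in 4X against 59.3, 61.1 and 59.7 FPKM in 2X. Its 2X libraries were the closest together of the 83 genes, with a coefficient of variation of 1.495%, and its gap of 1.01 log2 units was among the smallest. In 4X replicate 1, 6 of the 15 plasmodesma genes reached the lowest 2X library, against 1 and 0 in 4X replicates 2 and 3.

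Of the 9 lists plotted by library, that of ATPase activity coupled to the movement of substances had the lowest median in 4X replicate 1. It held 1 of the 83 genes among 12 tested, and its medians were -0.52, -0.66 and -0.82 log2 units in 4X replicates 1, 2 and 3. That gene, VIT_05s0020g04390, had 11.6, 1.23 and 0.925 FPKM in 4X, against 7.64, 10.1 and 7.15 FPKM in 2X. VIT_13s0064g00940, under active transmembrane transporter activity, had 11.3, 3.19 and 3.18 FPKM in 4X, against 12.04, 7.55 and 9.36 FPKM in 2X. The difference between the lists was not tested, and the counts of genes behind them are small.

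**Figure D4:**
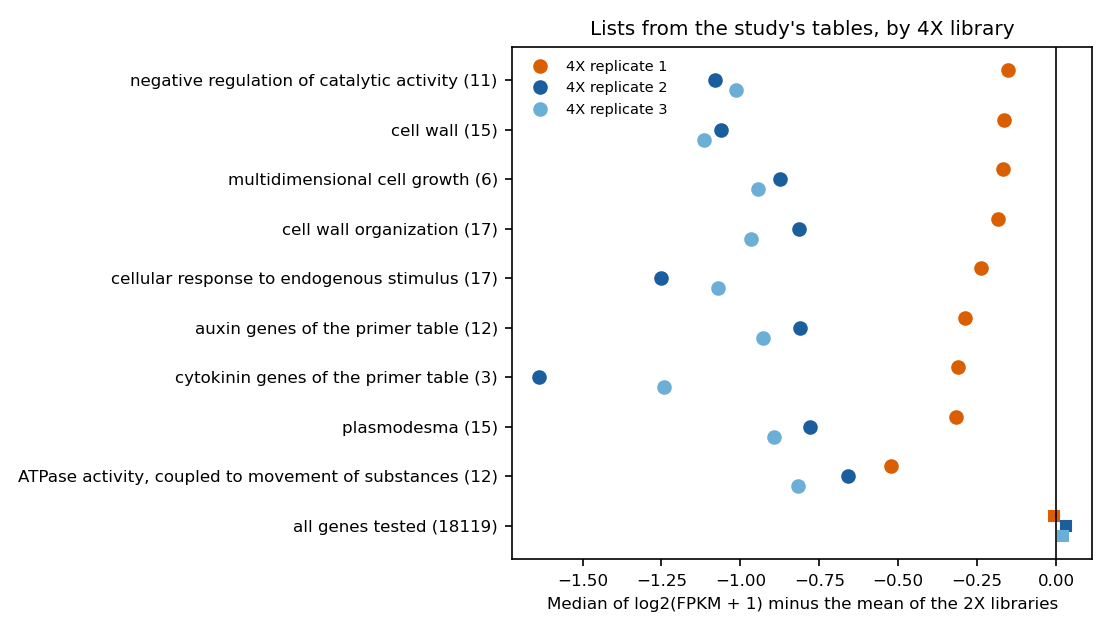
Median difference of each 4X library from the mean of 2X, in log2 units of FPKM + 1, for 9 supplementary lists and for all genes tested, with the number of genes tested in parentheses. Circles are the lists and squares are all genes tested. 4X replicate 1 lies nearer to 0 than the other 4X libraries in each list, from -0.15 for negative regulation of catalytic activity to -0.52 for the ATPase list.

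In the limma fit with all 6 libraries, 0 genes of the cell wall, cell wall organization, endogenous stimulus, auxin, plasmodesma and ATPase lists were called. At an unadjusted p under 0.05, lower in 4X were 8 of 15, 12 of 17, 14 of 17, 9 of 12, 12 of 15 and 10 of 12 genes of these lists, in that order, beside 6.53% of all genes tested (1183 of 18119). The lists were drawn from genes picked as decreased in these libraries, so higher shares are built in. Without 4X replicate 1, genes called lower were 11 of 15 for cell wall, 13 of 17 for cell wall organization and 13 of 17 for endogenous stimulus. They were 10 of 12 for the auxin genes, 12 of 15 for plasmodesma and 5 of 12 for the ATPase list, and 0 genes of these lists were called higher. The background is the 3.14% of all genes tested that were called lower without this library.

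Some of the genes lie next to each other by their identifiers, which number the genes of a scaffold in steps of 10. Between neighbouring numbers there were 5 pairs, with 10 of the 83 genes. The longest group was a run of 3 on chromosome 18, as the identifiers give it, with VIT_18s0001g06150, VIT_18s0001g06170 and VIT_18s0001g06180. VIT_18s0001g06170 had 211, 22.9 and 33.0 FPKM in 4X, against 164, 172 and 149 FPKM in 2X. VIT_18s0001g06180 had 51.5, 6.17 and 11.99 FPKM in 4X, against 29.3, 41.5 and 28.3 FPKM in 2X. In all 3 genes of the run 4X replicate 1 was above every 2X library.

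The genes around this run did not share its pattern throughout, and their values were looked up after the run was seen. VIT_18s0001g06160, inside it, had 4.44, 2.67 and 2.96 FPKM in 4X, against 2.15, 1.70 and 2.11 FPKM in 2X, so all 3 4X libraries were higher. VIT_18s0001g06200 had 26.9, 23.1 and 22.3 FPKM in 4X, against 27.6, 25.1 and 27.9 FPKM in 2X. Close by are VIT_18s0001g06020, described above, and VIT_18s0001g06030. The second of these had 8.97, 0.532 and 1.65 FPKM in 4X against 3.80, 4.68 and 4.09 FPKM in 2X and missed the gap threshold at 0.86 log2 units.

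**Figure D5:**
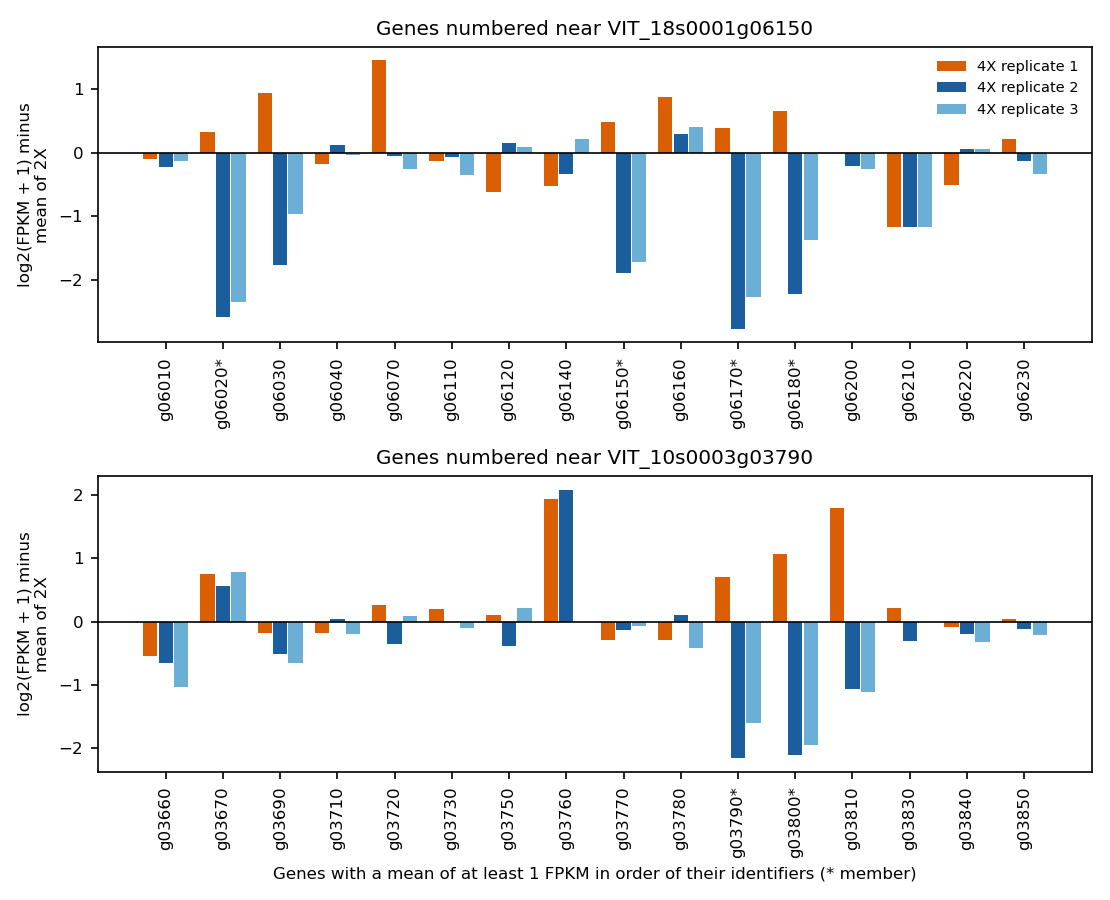
Difference of each 4X library from the mean of 2X, in log2 units of FPKM + 1, for the genes numbered near VIT_18s0001g06150 (top) and VIT_10s0003g03790 (bottom), with a mean of at least 1 FPKM and in the order of their identifiers. Orange bars are 4X replicate 1, blue bars are 4X replicates 2 and 3, and an asterisk marks the 83 genes. The marked genes have an orange bar above 0 and blue bars below -1. Some of their neighbours have bars near 0 and others do not. VIT_10s0003g03810, which is not marked, also has an orange bar above 0 and blue bars below -1.

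The pair on chromosome 10 was singled out after its values were seen. VIT_10s0003g03790 had 23.6, 2.35 and 3.93 FPKM in 4X, against 10.4, 15.4 and 17.1 FPKM in 2X. VIT_10s0003g03800 had 28.9, 2.30 and 2.68 FPKM in 4X, against 9.68, 16.9 and 14.3 FPKM in 2X. The next gene, VIT_10s0003g03810, had 208, 27.6 and 26.5 FPKM in 4X, against 67.8, 82.6 and 36.4 FPKM in 2X. It had the same order of 4X libraries and missed the threshold at a gap of 0.38 log2 units, because of its low value in 2X replicate 3.

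The other pairs, named after their values were seen, were on chromosomes 1, 6 and 8. VIT_06s0061g01390 stands beside the highly expressed VIT_06s0061g01380 and had 13.9, 1.13 and 1.39 FPKM in 4X, against 5.64, 7.49 and 6.001 FPKM in 2X. VIT_08s0105g00180 had 17.4, 4.10 and 4.21 FPKM in 4X, against 11.2, 13.9 and 11.2 FPKM in 2X. Its neighbour VIT_08s0105g00190 had 38.1, 9.51 and 10.5 FPKM in 4X, against 24.9, 32.2 and 23.2 FPKM in 2X. In both genes of the pair on chromosome 8, 4X replicate 1 was the highest library.

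VIT_01s0010g02930 had 5.85, 0.863 and 0.443 FPKM in 4X, against 4.54, 7.98 and 3.87 FPKM in 2X. VIT_01s0010g02940 had 4.04 and 0.254 FPKM in 4X replicates 1 and 2 and was listed at 0 in 4X replicate 3, against 1.74, 4.12 and 4.53 FPKM in 2X. Both genes of this pair were at low levels with widely spread 2X libraries. Whether neighbouring genes are near-identical copies that share reads is not given in the sources used here, so the values of each gene in a pair are uncertain.

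By chromosome, 10 of the 83 genes were on chromosome 18 (12.05%, against 7.52% of genes tested), 9 of them with the prefix VIT_18s0001 (10.8%, against 5.44%). Chromosome 3 held 8 (9.64%, against 4.06%), chromosomes 5, 6 and 14 held 7 each, and chromosomes 2 and 16 held 0. Another 3 had identifiers that begin VIT_00, which give no chromosome. The genes were thus spread over 17 chromosomes, and no share was tested.

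Some genes were close to the thresholds. Just inside that on the gap were VIT_11s0016g04700 and VIT_18s0001g08580, with gaps of 1.00 and 1.01 log2 units. VIT_11s0016g04700 had 114, 28.0 and 26.5 FPKM in 4X, against 62.3, 72.7 and 57.1 FPKM in 2X. Just outside it, with gaps of 0.9991 and 0.9985, were VIT_12s0059g02160 and VIT_13s0064g01510. VIT_12s0059g02160 had 21.4, 9.55 and 8.55 FPKM in 4X, against 23.9, 20.1 and 28.2 FPKM in 2X. VIT_13s0064g01510 had 40.9, 19.8 and 18.8 FPKM in 4X, against 49.99, 42.3 and 40.5 FPKM in 2X. In these genes too 4X replicate 1 was above the lowest 2X library and the other 4X libraries were below it.

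On the condition for 4X replicate 1, VIT_08s0007g06520 and VIT_03s0063g01930 were the nearest inside, each by 0.0065 log2 units. VIT_03s0063g01930 had 42.4, 15.7 and 15.2 FPKM in 4X, against 48.8, 44.9 and 42.2 FPKM in 2X. Just outside, and named after their values were seen, were VIT_13s0019g02690 and VIT_06s0004g04010. VIT_06s0004g04010 had 17.3, 5.08 and 6.16 FPKM in 4X, against 17.5, 22.7 and 18.6 FPKM in 2X. VIT_13s0019g02690 had 1.64, 0.131 and 0.133 FPKM in 4X, against 1.64, 2.29 and 2.39 FPKM in 2X. In both, 4X replicate 1 was all but equal to the lowest 2X library, so their place outside the 83 rests on a small margin.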

How the data were processed

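The authors trimmed the RNA-Seq reads, aligned them to the V. vinifera genome and deposited FPKM per gene and library, which were used as deposited. The submitters' processing notes name TopHat2 2.0.14 and Cufflinks 2.2.1. The build, the version of the annotation, and how strand and multiply mapped reads were handled are not given in the sources used here. Of the columns of values, 0 were left out. Samples were grouped by the ploidy in their labels. The p-values weigh the difference between ploidies against the spread among the 3 pooled libraries of each. Fits with a library left out had fewer libraries in the ploidy of that library.

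The 83 genes, the rule and the lists were chosen with earlier results of these data known. Differences were computed on log2(FPKM + 1) with a pseudocount of 1 in Python 3.11.15 (numpy 2.4.6, pandas 2.3.3, matplotlib 3.10.9). The study's test in Cufflinks needs the reads, so limma 3.58.1 in R 4.3.3 was used, two-sided, with equal weights and a trend of variance on expression, for genes whose mean reached 1 FPKM. The fit was tested on simulated data in which changed genes were shifted alike in all libraries of a ploidy. Those data held no library that departs from its group, so they do not show how the fit treats the 83 genes. Alternatives were a pseudocount of 0.1, other filters, a gap of 1.5, median scaling, quantile normalization, no trend, the replicate number as a block, and leaving out each library in turn.

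The genes named are the 12 with the largest gap, the 8 with the highest mean FPKM in 2X, those in the primer or methylation tables, the 3 with the largest gap in each list with 3 or more members, those nearest a threshold, and runs of 3 or more with gene numbers at most 50 apart. Exceptions (11 of the 41 named members) are named as such, and genes with a GO term were added for the question on functions. The reference table matched 0 of the identifiers, so lists by gene description, cell type markers of the bud and promoter motifs were planned and were not analysed here, and no sequences are shown.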

Additional observations from a re-analysis of the deposited data

How the results depend on the processing

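Of the choices in the rule, the size of the gap moved the number of genes most. A gap over 1.5 log2 units left 24 genes, all of them among the 83. Other alternatives gave 82 (median scaling, 81 shared) to 120 genes (pseudocount 0.1, which held all 83). With a library left out and its condition dropped, the number was 83 to 159, with 159 genes without 4X replicate 1, 138 without 4X replicate 3 and 107 without 4X replicate 2. Without 2X replicate 2 it was again 83, of which 69 were shared.

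Leaving out a library gave 0 to 569 genes called lower and 0 to 185 called higher by limma, with the highest counts without 4X replicate 1. At an unadjusted p under 0.05 the ranges were 669 to 1971 lower and 835 to 1856 higher. The number of the 83 called lower was 0 to 82, and 82 was reached only without 4X replicate 1, which by construction holds the high value in each of these genes. It was 0 under each other alternative run, where 0 to 48 had an unadjusted p under 0.05. In each of 14 lists, several of which share genes, the genes that met the altered rule were counted. This number moved by more than 1.5 times in 10 lists with the wider gap. It did so in 8 without 4X replicate 1 and in 5 without 2X replicate 2. The rule puts 4X replicates 2 and 3 below every 2X library, so a lower mean in 4X was nearly fixed in advance. It was found in all 83 genes under every limma alternative, with 1 exception. In VIT_03s0017g01450 without 4X replicate 2, the log2 fold change was 0.047 (adjusted p = 0.984). With a library left out, its log2 fold change was -1.26 to 0.047. Of the 41 named members, 40 passed the threshold without 4X replicate 1 and 0 under any other alternative, and the exception was VIT_17s0000g06210.

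Whether the replicate numbers pair the samples could not be decided. The correlations of deviations between same-numbered libraries were -0.008, -0.051 and 0.087, and those between differently numbered ones were -0.135 to 0.126. With the replicate number as a block limma called 0 genes lower and 0 higher, against 5 and 11 without it, and 0 of the 83. A block leaves less information on the variance of each gene, so these counts cannot decide the question. At an unadjusted p under 0.05 the block fit had 1031 lower and 1259 higher. A large part of the genes have no function in the tables used, and the lists are short. Counting error was not estimated, so a low FPKM in a single library cannot be told apart from it.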
